A study of Mus musculus with 8 samples.

Results

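A set of 10 genes of the lipid droplet surface and of triglyceride breakdown was followed in 3T3L1 cells, a mouse preadipocyte line, in which Ddx6, an RNA helicase of cytoplasmic P-bodies, had been targeted. The genes were Fabp4, Cidec, Plin1, Plin2, Plin3, Plin4, Pnpla2, Lipe, Mgll and Abhd5, which make up 10 of the 46073 genes in the table. They were chosen by name for their roles, but with earlier results of these data known. Counts of them set beside the share of all genes therefore describe the set and do not test it. Levels were measured by RNA-seq as FPKM, fragments scaled to the length of the transcripts and to the mapped fragments of the library. The Ddx6-KO cells carried Cas9 and a guide against Ddx6 from a lentivirus, while the TOM cells, the mock line, carried Cas9 and a guide against tdTomato, a fluorescent protein gene foreign to the mouse. Both lines went through puromycin selection and limiting dilution, and how many clones stand behind the libraries is not stated in the labels or methods. Cells were sampled at day 2 of adipogenic induction with dexamethasone, IBMX and insulin and at day 0, before the cocktail. There were 2 libraries in each of 4 groups, named Ddx6-KO day 2, Ddx6-KO day 0, TOM day 2 and TOM day 0. The labels number the libraries as replicates and the methods speak in general of experiments done in triplicate, but neither states if a group's libraries were grown as different cultures. Every p-value covers no more than the spread between these libraries, which may be technical.

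Fat cells store triglyceride in lipid droplets, which are covered by perilipins and joined by CIDE proteins that fuse droplets. Perilipins differ by cell type, since Plin2 and Plin3 coat droplets in most cells while Plin1 is the coat protein of adipocytes. On stimulation through cAMP, the co-activator ABHD5 leaves PLIN1 and activates the triglyceride lipase ATGL, the product of Pnpla2. Hormone-sensitive lipase (Lipe) and monoglyceride lipase (Mgll) then cut the diglycerides and monoglycerides. Fabp4 carries the fatty acids in the cytosol and is a classical target of PPARγ in adipocytes.

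The libraries were of unequal depth, estimated from the FPKM worth of a single fragment at 1480000 to 21380000 fragments. The Ddx6-KO day 2 libraries held an estimated 1480000 and 2570000 fragments, and small RNAs took 36.8 to 53.3% of the summed FPKM across the 8 libraries. Ddx6 itself was listed at 50.001 and 43.036 FPKM in the libraries labelled Ddx6-KO at day 2 and at 27.2 and 31.9 FPKM in those at day 0, against 28.8 and 28.4 FPKM in TOM libraries at day 2 and 11.3 and 19.9 FPKM at day 0. Its RNA was thus no lower in the libraries labelled Ddx6-KO (limma, Ddx6-KO minus TOM, log2 difference 0.68, adjusted p = 0.099 at day 2, and 0.93, adjusted p = 0.055 at day 0). A whole-gene level does not test for small insertions or deletions at a guide's target. For the Ddx6-KO cells the paper reports loss of the protein by western blotting, which RNA levels do not measure. In Ddx6-KO libraries the 9 preadipocyte and fibroblast markers summed to 1095 to 1254 FPKM at day 2 and 1387 to 1391 at day 0. The sums were 980 to 984 FPKM in TOM day 2 and 1274 to 1748 FPKM in TOM day 0 libraries. Single markers differed between the lines in both directions. At day 0, by limma adjusted p under 0.05, 4 of 8 tested markers had less RNA in the Ddx6-KO line and 2 had more. The shares of all tested genes were 4.81 and 6.55%. Day 0 means in Ddx6-KO and TOM were 63.6 and 487 FPKM for Dlk1, 28.3 and 110 for Ly6a, and 54.0 and 109 for Pdgfra. They were 0.34 and 10.4 for Thy1 (testable through TOM alone), 530 and 174 for Fn1, and 49.6 and 23.1 for Pdgfrb. At day 2 the test gave 3 lower and 2 higher, against 8.58 and 10.4% of all tested genes. Thy1 is among the lower markers on both days and, being testable through TOM alone, adds no support to these counts. The 9 adipocyte markers other than the 10 genes summed to 24.3 to 25.6 FPKM in Ddx6-KO day 2 libraries and 25.8 to 28.4 FPKM in Ddx6-KO day 0 libraries, against 224 to 248 FPKM in TOM day 2 and 188 to 210 FPKM in TOM day 0 libraries. Lpl, the secreted lipoprotein lipase, was 173 to 195 FPKM of the TOM day 0 sum, and Cfd, adipsin, was listed at 0 in all 4 Ddx6-KO libraries. All 4 epithelial markers summed to under 1 FPKM in each library, and 8 macrophage markers to 5.64 to 12.2 FPKM. Endothelial markers (6 genes) summed to 3.74 to 6.39 FPKM in Ddx6-KO day 2 and 0.83 to 1.78 FPKM in TOM day 2 libraries, and 5 brown adipocyte markers to 13.9 to 17.6 FPKM in Ddx6-KO day 2 and 1.56 to 2.21 FPKM in TOM day 2 libraries. At day 0 the brown adipocyte markers summed to 1.497 to 1.742 FPKM in Ddx6-KO and 4.36 to 10.8 FPKM in TOM libraries. Ppargc1a, a transcriptional co-activator, was 12.2 and 12.9 FPKM of the Ddx6-KO day 2 sum, and Ucp1, Cidea and Elovl3 were under 1 FPKM in all 8 libraries. Cox7a1 was at 3.27 and 0 FPKM in Ddx6-KO day 2 libraries and at most 0.23 FPKM in the rest. The part of other cell types in the results was not tested. Fewer cells that express a gene and less RNA per cell cannot be told apart in these bulk libraries.

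Promoter sequences are shown for the 2 coat genes that were near 0 outside TOM day 2, Cidec and Plin1, and for Plin2, which was lower at day 2 in both lines. They are RefSeq sequences of build GRCm38.p6, from 250 bases before to 50 bases after the gene start. RefSeq promoters were matched for 9 of the 10 genes by symbol, 12 promoters in all, of which Cidec, Lipe and Mgll had 2 each. None was matched for Fabp4, so its promoter was not searched for any motif. Capitals mark matches on either strand to TTNNGNAA, a sequence read by C/EBP factors, and the Plin2 window held no match to any of the 5 motifs searched.
Cidec, chr6:113435711-113436010, minus strand: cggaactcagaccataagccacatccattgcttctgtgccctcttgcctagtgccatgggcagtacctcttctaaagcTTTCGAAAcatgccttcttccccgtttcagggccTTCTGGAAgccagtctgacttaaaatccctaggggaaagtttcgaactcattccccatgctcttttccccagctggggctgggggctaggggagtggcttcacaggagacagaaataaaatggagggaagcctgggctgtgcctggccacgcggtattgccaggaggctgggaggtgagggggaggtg
Plin1, chr7:79732727-79733026, minus strand: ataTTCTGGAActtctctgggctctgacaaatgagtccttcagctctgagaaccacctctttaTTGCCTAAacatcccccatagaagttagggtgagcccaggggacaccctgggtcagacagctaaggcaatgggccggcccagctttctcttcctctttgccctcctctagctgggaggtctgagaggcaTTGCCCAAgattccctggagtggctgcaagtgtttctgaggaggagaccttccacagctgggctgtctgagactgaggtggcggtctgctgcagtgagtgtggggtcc
Plin2, chr4:86670010-86670309, minus strand: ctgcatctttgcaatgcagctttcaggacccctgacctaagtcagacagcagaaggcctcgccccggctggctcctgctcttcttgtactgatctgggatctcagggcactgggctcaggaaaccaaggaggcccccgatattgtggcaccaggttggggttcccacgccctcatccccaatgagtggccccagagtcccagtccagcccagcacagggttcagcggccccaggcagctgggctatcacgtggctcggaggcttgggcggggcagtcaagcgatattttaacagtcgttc
TTNNGNAA occurred in 3 of the 12 promoters, those of Cidec (both) and Plin1, against 40.7% of all 32851 promoters. GGNCANAGG, the inner part of the repeat bound by PPAR and RXR, was in the Plin3 promoter alone among the promoters searched, against 8.46% of all promoters. ACANNNTGT, a glucocorticoid receptor sequence, was in the second Lipe promoter alone, against 6.85% of all promoters. The cAMP response element TGACGTCA (1.79% of all promoters) and the TATA box TATAAA (13.6%) were in none of the 12. Both strands were searched. In the Cidec promoter shown, TTTCGAAA at -172 to -165 from the start matched on both strands and TTCTGGAA at -138 to -131 on one. Matches describe these letters only.

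Over the first 2 days of induction, 0 of the 10 genes rose in Ddx6-KO cells, against a background of 4.8% of all 15811 tested genes, while 6 of the 10 rose in TOM cells, against a background of 3.4%. In Ddx6-KO cells, Fabp4 and Plin2 were lower at day 2 than at day 0, as were 5.85% of all genes. In TOM cells, Fabp4, Cidec, Abhd5, Pnpla2, Lipe and Plin1 rose and Plin2 fell, as did 3.74% of all genes. The test was limma's moderated test on log2(FPKM + 1) with a Benjamini-Hochberg adjusted p under 0.05. At an unadjusted p under 0.05 it gave 2 higher genes in Ddx6-KO cells, Lipe and Abhd5, beside 2122 of all 15811 tested genes. The median log2 change of the 10 genes was 0.10 in Ddx6-KO cells, beside 0.09 over all tested genes, and 2.34 in TOM cells, beside 0.03 over all tested genes. On this scale a fold change of a gene near or below 1 FPKM is understated. Cidec and Plin1 passed the filter of at least 1 FPKM in at least 2 libraries through the TOM day 2 libraries alone, and a gene that passes in this way had to be higher there. They add no support to the count of genes that rose in TOM cells, and the median in TOM cells includes them. Plin4 reached 1 FPKM in 1 Ddx6-KO library and in all 4 TOM libraries, so it passed through TOM cells and had to be higher in them.

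**Figure D1:**
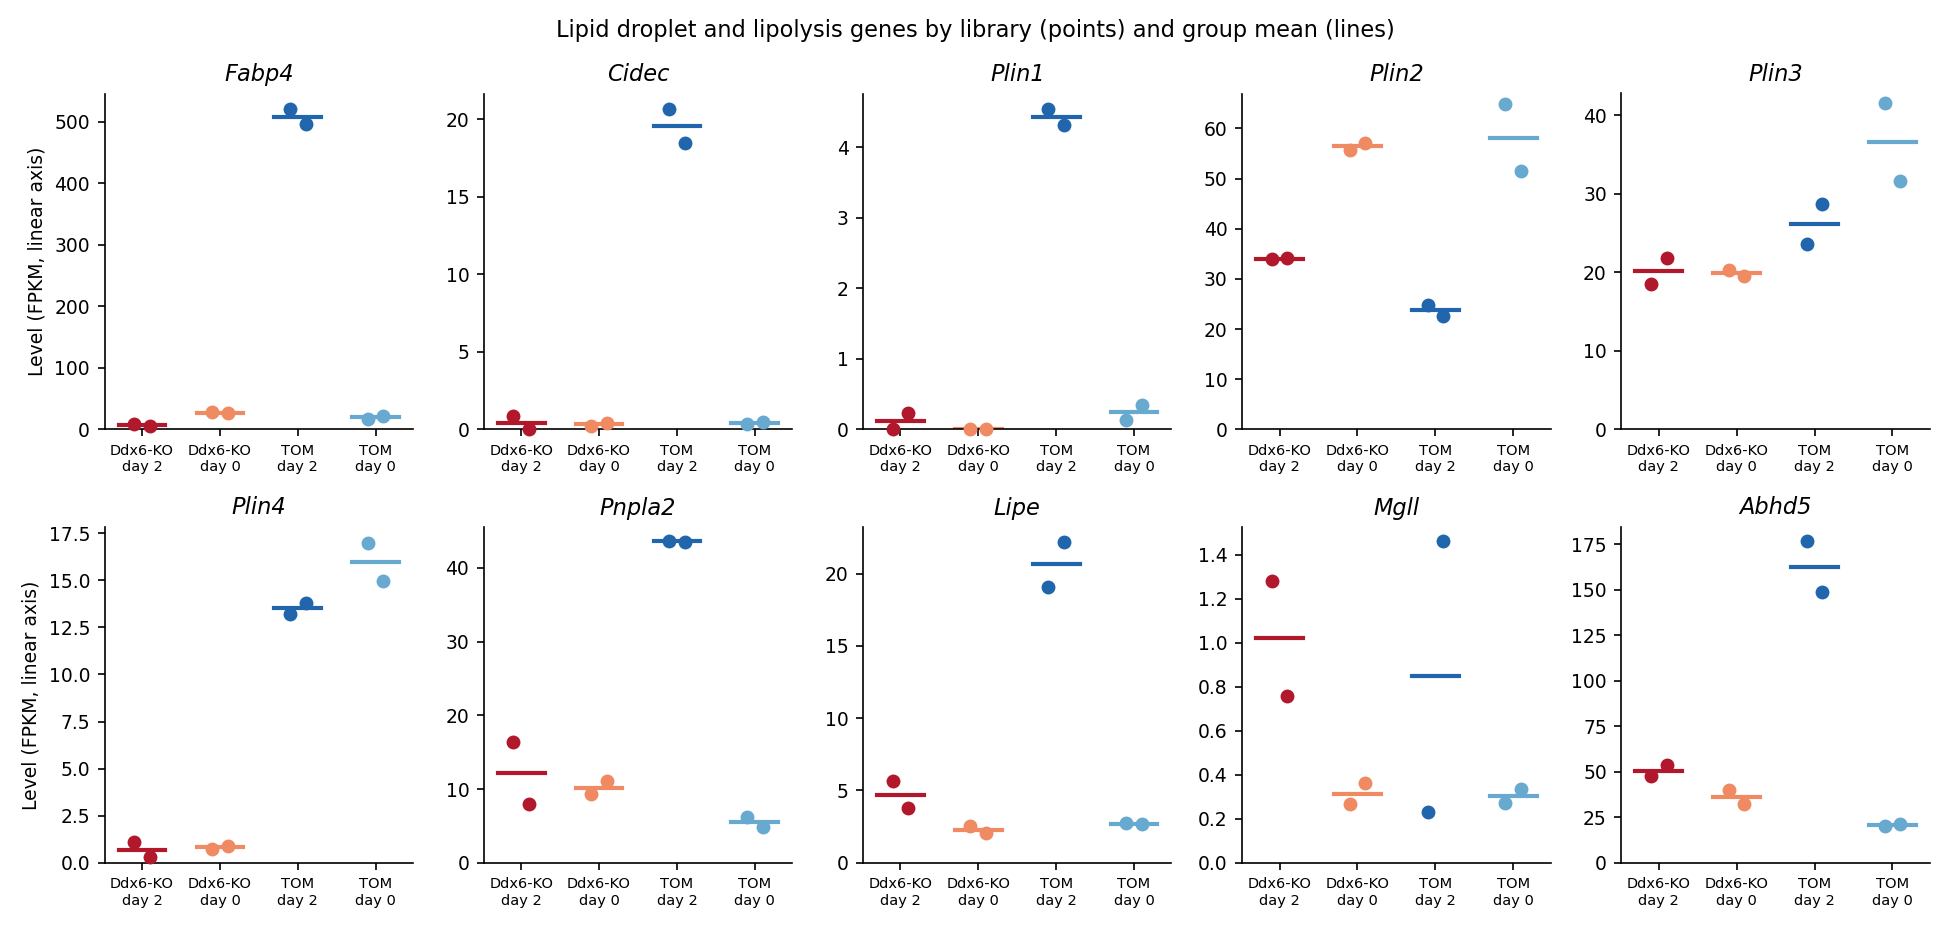
Level of each gene in FPKM on a linear axis that starts at 0, with a point for each of the 2 libraries of a group and a line at the group mean. Fabp4, Cidec, Plin1, Pnpla2, Lipe and Abhd5 stand highest in both TOM day 2 libraries, Plin2 is lowest there, and Plin4 is high in TOM cells on both days.

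Fabp4, the fatty acid carrier (chromosome 3, 10204088 to 10208576, minus strand, GRCm38), had the largest change in log2(FPKM + 1) of the 10 genes in each line. It was at 8.03 and 4.66 FPKM in Ddx6-KO day 2 libraries and 27.5 and 26.6 FPKM in Ddx6-KO day 0 libraries. In TOM cells it was at 520 and 496 FPKM at day 2 and 17.5 and 21.1 FPKM at day 0. The 4 groups did not overlap, with Ddx6-KO day 2 lowest and TOM day 2 highest, while at day 0 the Ddx6-KO libraries were slightly above the TOM libraries. The mean fell 4.27-fold in Ddx6-KO cells (limma log2 change -1.97, SE 0.22, adjusted p = 0.00233) and rose 26.4-fold in TOM cells (log2 change 4.66, SE 0.22, adjusted p = 0.000117). The change in Ddx6-KO cells was thus lower than that in TOM cells by a log2 difference of -6.63 (SE 0.32, adjusted p = 0.000229). In order of level, Fabp4 was the 5745th and 7877th gene of the Ddx6-KO day 2 libraries and the 84th and 94th gene of the TOM day 2 libraries. It made up 3.66 to 6.03% of the summed FPKM of the 10 genes in Ddx6-KO day 2 libraries and 61.5 to 62.0% in TOM day 2 libraries.

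Of the 5 other fatty acid binding proteins listed, Fabp1, Fabp2, Fabp3, Fabp5 and Fabp7, only Fabp5, the epidermal form, passed the filter. Fabp5 was at 6.11 and 2.83 FPKM in Ddx6-KO day 2 libraries and 12.7 and 8.76 FPKM in Ddx6-KO day 0 libraries, against 55.6 and 71.7 FPKM in TOM day 2 and 5.21 and 5.10 FPKM in TOM day 0 libraries. It rose in TOM cells (log2 change 3.38, SE 0.32, limma adjusted p = 0.000954), and its change in Ddx6-KO cells was lower by a log2 difference of -4.53 (SE 0.45, adjusted p = 0.00279). Fabp4 stood at 1.31 and 1.64 times the Fabp5 level in Ddx6-KO day 2 libraries and at 9.36 and 6.92 times in TOM day 2 libraries.

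Cidec, which drives the fusion and growth of droplets in white fat cells (chromosome 6, 113424634 to 113435760, minus strand), was near 0 in every group except TOM day 2. It was listed at 0.87 and 0 FPKM in Ddx6-KO day 2 libraries and at 0.23 and 0.43 FPKM in Ddx6-KO day 0 libraries, against 20.6 and 18.5 FPKM in TOM day 2 and 0.31 and 0.45 FPKM in TOM day 0 libraries. Both TOM day 2 libraries lay far above the other 6, which overlapped with each other. In Ddx6-KO cells the days differed by less than 1 standard error (SE), while in TOM cells Cidec rose (log2 change 3.90, SE 0.34, limma adjusted p = 0.000706). The change in Ddx6-KO cells was lower than that in TOM cells by a log2 difference of -3.85 (SE 0.48, adjusted p = 0.00685). The call of this difference was lost without Ddx6-KO day 0 library 2 (adjusted p = 0.0517). With log2(FPKM + 0.1) in place of log2(FPKM + 1) the difference was not called either (limma adjusted p = 0.0836). The Cidec values rest on an estimated 0 to 3.0 fragments per library in Ddx6-KO cells and on 2.8 and 12.3 in TOM cells at day 0, so no ratio of levels is given.

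Plin1, the adipocyte perilipin (chromosome 7, 79720218 to 79732903, minus strand), was listed at 0 and 0.23 FPKM in Ddx6-KO day 2 libraries and at 0 in both Ddx6-KO day 0 libraries. In TOM cells it was at 4.54 and 4.32 FPKM at day 2 and 0.14 and 0.35 FPKM at day 0. Only the TOM day 2 libraries exceeded 1 FPKM. Plin1 rose in TOM cells (log2 change 2.13, SE 0.29, limma adjusted p = 0.00523). This call was lost without TOM day 2 library 1, and also with log2(FPKM + 0.1) (adjusted p = 0.0688). The change in Ddx6-KO cells was lower by a log2 difference of -1.98 (SE 0.41, adjusted p = 0.0439), and this call was lost without any 1 of the 8 libraries (adjusted p 0.0503 to 0.154).

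Plin2, the perilipin of most cell types (chromosome 4, 86648386 to 86670060, minus strand), moved against Cidec and Plin1 in TOM cells and was lower at day 2 in both lines. It was at 33.9 and 34.1 FPKM in Ddx6-KO day 2 libraries and 55.7 and 57.2 FPKM in Ddx6-KO day 0 libraries, against 24.9 and 22.7 FPKM in TOM day 2 and 64.9 and 51.5 FPKM in TOM day 0 libraries. The days did not overlap in either line. The log2 change was -0.72 in Ddx6-KO cells (SE 0.15, limma adjusted p = 0.0263) and -1.25 in TOM cells (SE 0.15, adjusted p = 0.00303), and the difference of the changes did not pass the test (0.53, SE 0.21, adjusted p = 0.240, and -0.080 after TPM rescaling over protein-coding genes, in which the FPKM of these genes are scaled to 1 fixed sum per library). The call in Ddx6-KO cells was lost without any 1 of the 4 Ddx6-KO libraries (adjusted p 0.0810 to 0.149).

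Plin3, which moves between cytosol and droplets (chromosome 17, 56277476 to 56292873, minus strand), changed over time in neither line by the test. It was at 18.5 and 21.8 FPKM in Ddx6-KO day 2 libraries and 20.3 and 19.5 FPKM in Ddx6-KO day 0 libraries, against 23.6 and 28.7 FPKM in TOM day 2 and 41.6 and 31.6 FPKM in TOM day 0 libraries. In Ddx6-KO cells the days differed by less than 1 SE, and in TOM cells the log2 change was -0.46 (SE 0.19, limma adjusted p = 0.214). Plin4, a long perilipin rich in repeats that coats small droplets in adipocytes (chromosome 17, 56100591 to 56109803, minus strand), set the lines apart on both days. It was at 1.08 and 0.28 FPKM in Ddx6-KO day 2 libraries and 0.75 and 0.89 FPKM in Ddx6-KO day 0 libraries, against 13.2 and 13.8 FPKM in TOM day 2 and 17.0 and 14.9 FPKM in TOM day 0 libraries. All 4 Ddx6-KO libraries lay under all 4 TOM libraries, through which Plin4 had passed the filter. Within each line the days differed by less than 1 SE. Plin4 shares 17 exonic bases with Hdgfl2 on the opposite strand.

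The share of each perilipin gene is given as a description. Plin2 gave 63.0 and 59.7% of the summed FPKM of Plin1 to Plin5 in Ddx6-KO day 2 libraries and 72.5 and 73.5% in Ddx6-KO day 0 libraries, against 37.6 and 32.7% in TOM day 2 and 52.4% in both TOM day 0 libraries. Plin4 gave 0.49 to 2.01% in Ddx6-KO libraries and 13.7 to 20.0% in TOM libraries. Plin1 gave 6.86 and 6.22% in TOM day 2 libraries and 0 to 0.41% in the other 6. The summed FPKM was 53.8 and 57.1 in Ddx6-KO day 2, 76.9 and 77.7 in Ddx6-KO day 0, 66.2 and 69.5 in TOM day 2, and 124 and 98.4 in TOM day 0 libraries, so it was lower at day 2 in both lines. FPKM is per length, so the genes can be summed, with no test made on the shares.

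**Figure D2:**
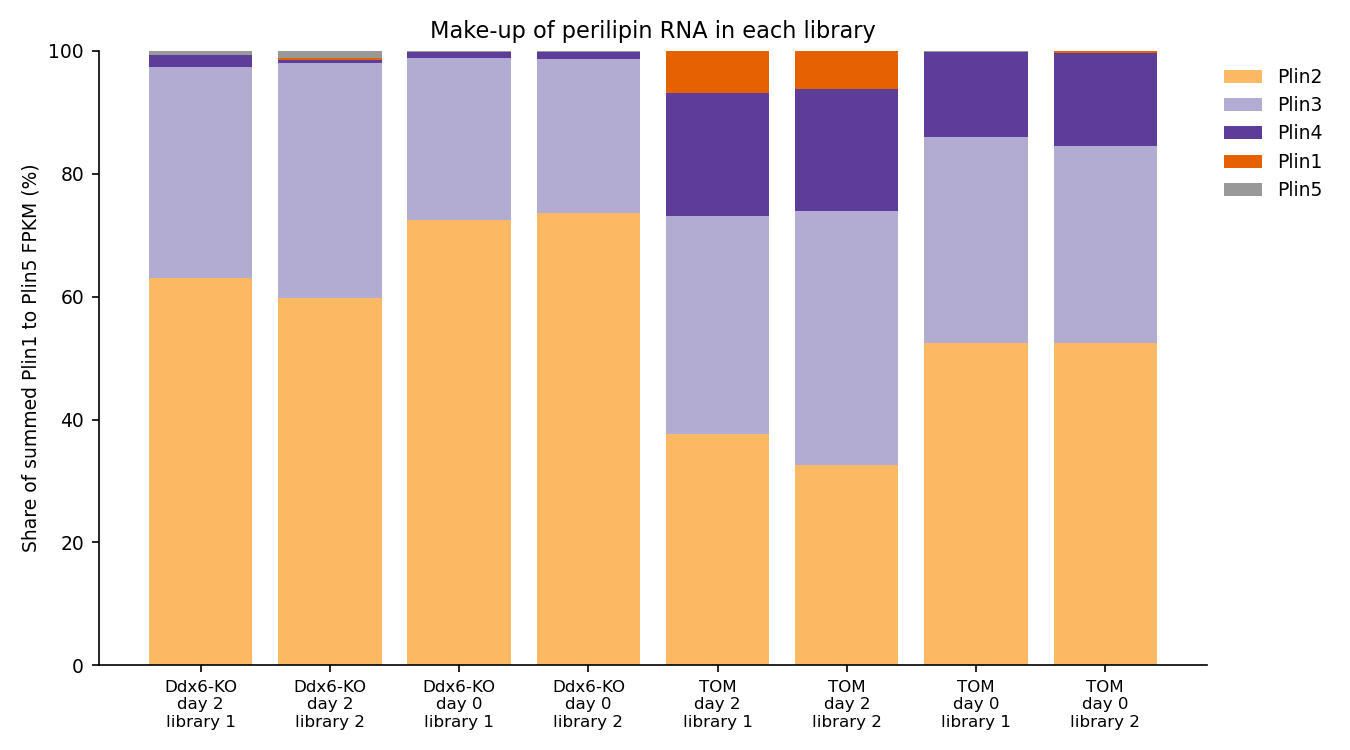
Share of each perilipin gene, in percent, in the summed FPKM of Plin1 to Plin5 of each library, 2 libraries per group. Plin2 makes up 59.7 to 73.5% in Ddx6-KO libraries and 32.7 to 52.4% in TOM libraries, and Plin4 and Plin1 are visible mainly in TOM libraries.

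Of the genes of lipolysis, the first lipase, its co-activator and hormone-sensitive lipase rose together in TOM cells. Pnpla2 (ATGL, chromosome 7, 141455198 to 141460743, plus strand) was at 16.4 and 7.91 FPKM in Ddx6-KO day 2 libraries and 9.36 and 11.0 FPKM in Ddx6-KO day 0 libraries, against 43.6 and 43.5 FPKM in TOM day 2 and 6.26 and 4.87 FPKM in TOM day 0 libraries. The days overlapped in Ddx6-KO cells, where they differed by less than 1 SE, and stood apart in TOM cells. Pnpla2 rose 7.83-fold in TOM cells (log2 change 2.77, SE 0.31, limma adjusted p = 0.00202). The change in Ddx6-KO cells was lower by a log2 difference of -2.61 (SE 0.43, adjusted p = 0.0190). That call was lost without any 1 of the Ddx6-KO day 0, TOM day 2 or TOM day 0 libraries (adjusted p 0.0555 to 0.108).

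Abhd5 (chromosome 9, 122351608 to 122381524, plus strand), the co-activator of ATGL, was the most abundant of the lipolysis genes per length in every library. It was at 47.6 and 53.6 FPKM in Ddx6-KO day 2 libraries and 39.7 and 32.3 FPKM in Ddx6-KO day 0 libraries, against 177 and 149 FPKM in TOM day 2 and 20.1 and 21.1 FPKM in TOM day 0 libraries. None of the 4 groups overlapped with another. The log2 change of 0.49 in Ddx6-KO cells did not pass (SE 0.16, limma adjusted p = 0.104), while Abhd5 rose 7.90-fold in TOM cells (log2 change 2.92, SE 0.16, adjusted p = 0.000156). The changes differed (log2 difference -2.43, SE 0.23, adjusted p = 0.00210), also without any 1 library. Its FPKM was 2.90 to 6.77 times that of Pnpla2 over the 8 libraries, with the lowest and the highest ratio in the Ddx6-KO day 2 group.

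Lipe, hormone-sensitive lipase (chromosome 7, 25379527 to 25398710, minus strand), was at 5.64 and 3.78 FPKM in Ddx6-KO day 2 libraries and 2.52 and 2.04 FPKM in Ddx6-KO day 0 libraries, against 19.1 and 22.2 FPKM in TOM day 2 and 2.72 and 2.68 FPKM in TOM day 0 libraries. Day 2 lay above day 0 in both lines. The log2 change was 0.78 in Ddx6-KO cells, which did not pass (SE 0.23, limma adjusted p = 0.0733), and 2.54 in TOM cells (SE 0.23, adjusted p = 0.00078). The log2 difference of the changes was -1.76 (SE 0.32, adjusted p = 0.0274), and without 1 library this call held only where Ddx6-KO day 2 library 1 was left out (adjusted p 0.0566 to 0.129 for the other 7). Mgll, monoglyceride lipase (chromosome 6, 88724412 to 88828360, plus strand), was at 1.28 and 0.76 FPKM in Ddx6-KO day 2 libraries and 0.27 and 0.36 FPKM in Ddx6-KO day 0 libraries, against 0.23 and 1.46 FPKM in TOM day 2 and 0.27 and 0.33 FPKM in TOM day 0 libraries. The TOM day 2 libraries spanned the whole range of TOM day 0, and no comparison of Mgll passed the test (log2 change 0.61, SE 0.40, adjusted p = 0.387 in Ddx6-KO cells, and 0.42, SE 0.40, adjusted p = 0.640 in TOM cells). Its values rest on an estimated 2.9 to 29.4 fragments per library, and an antisense gene, Gm26588, at 0.50 to 2.04 FPKM shares 167 exonic bases with it. Antisense genes of Lipe and Abhd5 were listed at 0 and at up to 0.85 FPKM.

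The interaction term, the change in Ddx6-KO cells minus the change in TOM cells, thus passed the test for 6 of the 10 genes. Each time the change was lower in Ddx6-KO cells, against 2.17% of all tested genes in that direction. Cidec and Plin1 had passed the filter through TOM day 2 alone, which favoured this direction, so they add no support to the count. The changes of 0 of 10 genes were higher in Ddx6-KO cells (2.02% of all genes), and 1, Plin2, was so at an unadjusted p under 0.05, beside 1478 of all 15811 tested genes. The median log2 difference of the changes was -1.87 over the 10 genes and 0.04 over all genes. The median of the 10 includes Cidec and Plin1, so the filter favoured its direction too. Fabp4 and Abhd5 passed without any 1 library, and the other calls depended on single libraries as given beside them. The changes within a line and the difference of the changes are computed from the same libraries and are not independent of each other.

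**Figure D3:**
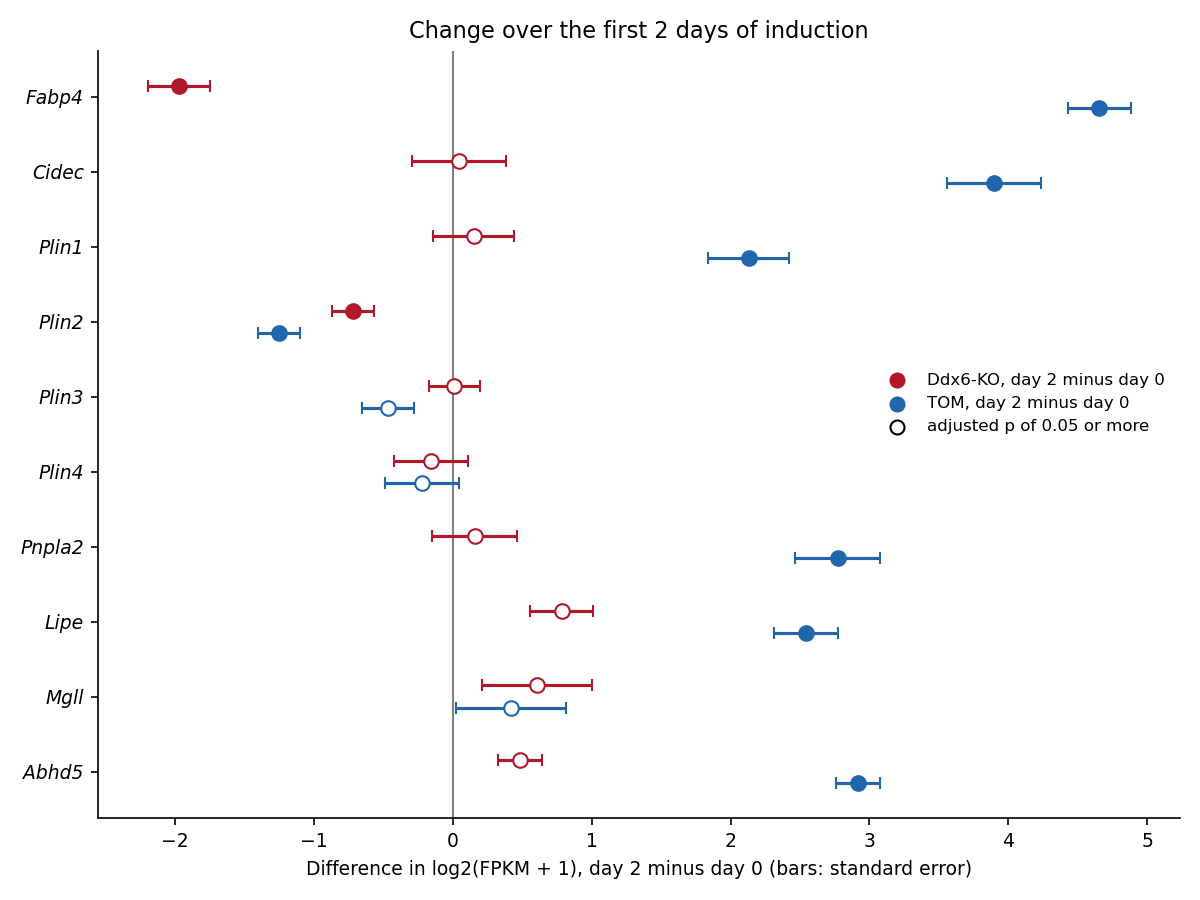
Difference in log2(FPKM + 1) between day 2 and day 0 for each gene in Ddx6-KO cells (upper point of a pair) and TOM cells (lower point), with bars of 1 standard error and filled points where the limma adjusted p was under 0.05. For the 6 genes that rose in TOM cells, the points lie between -1.97 and 0.78 in Ddx6-KO cells and between 2.13 and 4.66 in TOM cells, and Plin2 is below 0 in both lines.

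Compared directly at day 2, 7 of the 10 genes were lower in Ddx6-KO cells, against 8.58% of all tested genes. In the other direction, 0 of 10 were higher, against 10.4% (1 gene, Plin2, at an unadjusted p under 0.05, beside 3073 of all 15811 tested genes). Cidec, Plin1 and Plin4 had passed the filter through TOM libraries, which set this direction, so they add no support to the count of lower genes. The median log2 difference was -1.89 over the 10 genes and 0.11 over all genes. The median of the 10 includes Cidec, Plin1 and Plin4, so the filter favoured its direction too. The mean of Fabp4 was 80.1-fold lower in Ddx6-KO cells (limma log2 difference -6.15, adjusted p = 3.19e-05). Cidec (log2 difference -3.91, adjusted p = 0.000809) and Plin1 (log2 difference -2.29, adjusted p = 0.00299) had an estimated 0 to 2.8 fragments per Ddx6-KO day 2 library, too few for a ratio of levels. Plin4, which had passed the filter through TOM cells, was 19.9-fold lower (-3.15, adjusted p = 0.000746), on an estimated 9.2 and 4.2 fragments in the Ddx6-KO day 2 libraries. Of the lipolysis genes, Lipe was 4.38-fold lower (-1.94, adjusted p = 0.00226), Pnpla2 3.58-fold lower (-1.84, adjusted p = 0.00816) and Abhd5 3.21-fold lower (-1.66, adjusted p = 0.00113). Pnpla2 was no longer called without TOM day 2 library 1 (adjusted p = 0.0504). Plin2 stood 1.43-fold higher in Ddx6-KO cells with no overlap, a difference that did not pass (log2 difference 0.50, adjusted p = 0.0576, and -0.12 after TPM rescaling over protein-coding genes). It passed without either TOM day 0 library (adjusted p 0.0366 and 0.0373). For Plin3 the log2 difference was -0.36 (adjusted p = 0.225), and for Mgll the lines differed by less than 1 SE.

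At day 0, before the cocktail, 3 of the 10 genes differed between the lines. Plin4 and Plin3 were lower in Ddx6-KO cells, against 4.81% of all tested genes, and Abhd5 was higher, against 6.55%. Plin4, which had passed the filter through TOM cells and so adds no support to the count, was 19.5-fold lower (limma log2 difference -3.22, SE 0.26, adjusted p = 0.000725). Plin3 was 1.84-fold lower (log2 difference -0.83, SE 0.19, adjusted p = 0.0311) and Abhd5 was 1.75-fold higher (log2 difference 0.77, SE 0.16, adjusted p = 0.0242). The call of Abhd5 was lost without any 1 of the 4 day 0 libraries (adjusted p 0.0679 to 0.157) and that of Plin3 without 3 of them (adjusted p 0.138 to 0.172), the exception being TOM day 0 library 2. The Pnpla2 libraries did not overlap, with Ddx6-KO higher, but the log2 difference of 0.77 did not pass (SE 0.31, adjusted p = 0.160), except without either Ddx6-KO day 2 library (adjusted p 0.0426 and 0.0441). Fabp4 gave a log2 difference of 0.48 (SE 0.22, adjusted p = 0.238), and Cidec, Plin2, Lipe and Mgll differed between the lines by less than 1 SE. Plin1 was listed at 0 in both Ddx6-KO libraries, with a log2 difference of -0.31 (adjusted p = 0.578).

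**Figure D4:**
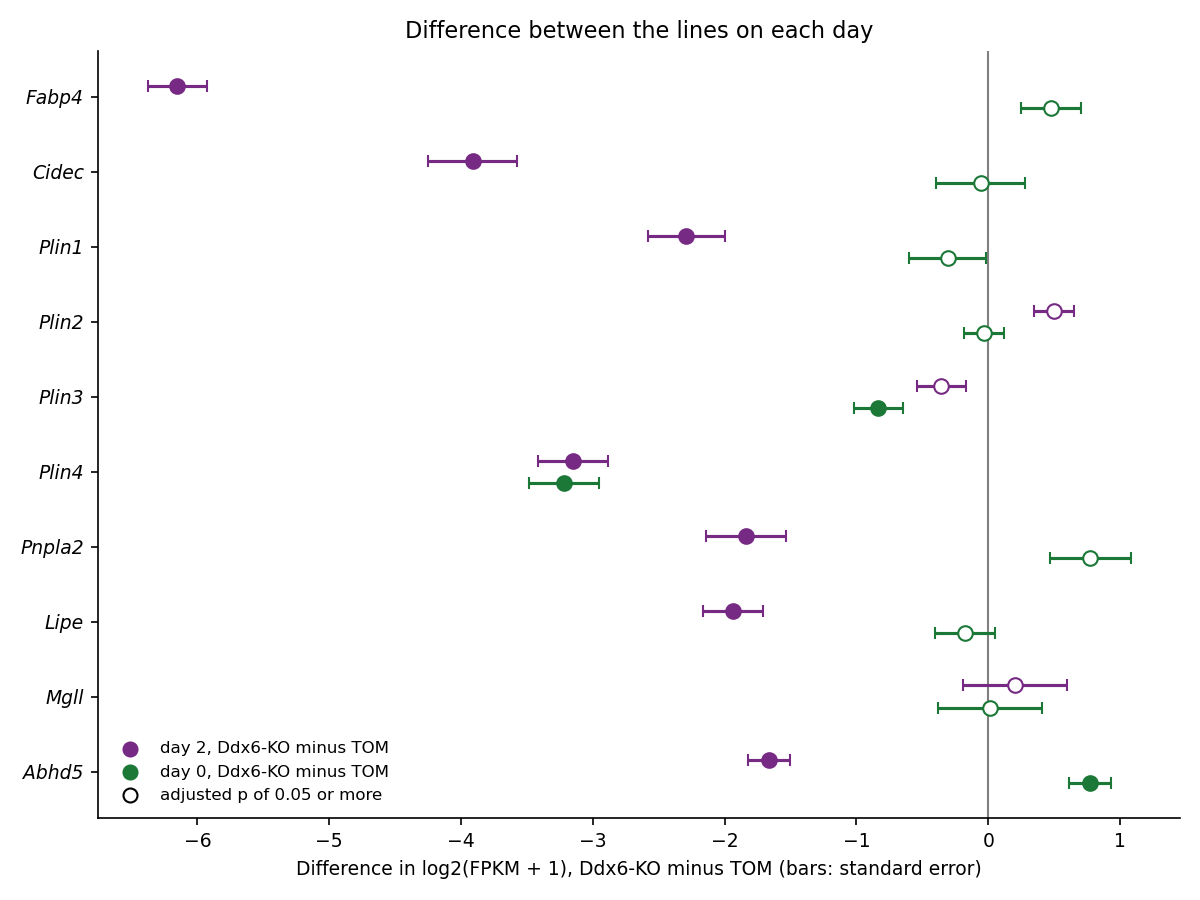
Difference in log2(FPKM + 1) between Ddx6-KO and TOM cells for each gene at day 2 (upper point of a pair) and day 0 (lower point), with bars of 1 standard error and filled points where the limma adjusted p was under 0.05. Plin4 lies at -3.15 and -3.22 on the 2 days, whereas Fabp4 lies at -6.15 at day 2 and 0.48 at day 0.

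Other genes of droplet structure were examined as a list of 16, of which 13 could be tested. In Ddx6-KO cells 2 of these 13 were higher and 2 lower at day 2, against 4.8 and 5.85% of all tested genes. In TOM cells 3 were higher and 0 lower (1, Acsl3, at an unadjusted p under 0.05, beside 1580 of all 15811 tested genes), against 3.4 and 3.74%. Their median log2 change was -0.13 in Ddx6-KO cells and 0.13 in TOM cells, with a median difference of the changes of -0.47, beside 0.09, 0.03 and 0.04 over all genes. All 4 calls in Ddx6-KO cells were lost without any 1 of the 4 Ddx6-KO libraries (adjusted p 0.0590 to 0.242 where lost). Fitm2, an endoplasmic reticulum protein needed for droplet formation, was at 3.35 and 3.20 FPKM in Ddx6-KO day 2 and 3.30 and 3.64 FPKM in Ddx6-KO day 0 libraries, against 22.6 and 21.6 FPKM in TOM day 2 and 4.95 and 4.02 FPKM in TOM day 0 libraries (limma log2 difference of the changes -2.15, SE 0.26, adjusted p = 0.00613). Cav1, the caveolar coat protein that also reaches droplets, fell in Ddx6-KO cells (log2 change -0.69, adjusted p = 0.0173) and rose in TOM cells (log2 change 2.14, adjusted p = 0.000193). Its changes differed too (log2 difference -2.84, adjusted p = 0.000666), so 2 of the 13 genes passed with the lower change in Ddx6-KO cells and 0 with the higher (1, Ldah, at an unadjusted p under 0.05, beside 1478 of all 15811 tested genes), against 2.17 and 2.02% of all genes. Cavin1, its partner in caveolae, rose in TOM cells (log2 change 0.86, adjusted p = 0.00561). Between the lines at day 2, 3 of 13 were higher in Ddx6-KO cells and 3 lower, against 10.4 and 8.58% of all genes. At day 0, 3 were higher and 0 lower (2 at an unadjusted p under 0.05, beside 1830 of all 15811 tested genes), against 6.55 and 4.81%. Among those higher in Ddx6-KO cells, Tmem159 at day 2 lost its call without 7 of the 8 libraries, and Cav1 at day 0 without 5. Acsl3, an acyl-CoA synthetase of nascent droplets, and the GTPase Rab18 were higher in Ddx6-KO cells on both days, Acsl3 by log2 differences of 1.67 at day 2 (adjusted p = 0.00367) and 2.18 at day 0 (adjusted p = 0.00181), and Rab18 by 0.97 (adjusted p = 0.00405) and 1.23 (adjusted p = 0.00233).

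Of 17 listed regulators of lipolysis and other lipases, 12 could be tested, and all 3 β-adrenergic receptors stayed under 1 FPKM in all 8 libraries. In Ddx6-KO cells 0 of 12 were higher at day 2 (1, Prkar1a, at an unadjusted p under 0.05, beside 2122 of all 15811 tested genes) and 1 was lower, against 4.8 and 5.85% of all tested genes, while in TOM cells 2 were higher and 1 lower, against 3.4 and 3.74%. The counts in Ddx6-KO cells were near the share over all genes. The median log2 change of the 12 was -0.01 in Ddx6-KO cells and 0.01 in TOM cells, with a median difference of the changes of -0.01. G0s2, an inhibitor of ATGL, was listed at 0 and 0.55 FPKM in Ddx6-KO day 2 libraries and at 0 in both Ddx6-KO day 0 libraries, against 9.11 and 15.4 FPKM in TOM day 2 and 0.33 and 0.82 FPKM in TOM day 0 libraries. It rose in TOM cells (limma log2 change 3.05, SE 0.37, adjusted p = 0.00303), and like Cidec and Plin1 it passed the filter through TOM day 2 alone. G0s2 thus adds no support to the count of genes that rose in TOM cells, or to the genes with a lower change in Ddx6-KO cells. Its rise was not called with log2(FPKM + 0.1). Hilpda, another inhibitor of ATGL, also rose in TOM cells (log2 change 1.23, adjusted p = 0.00992), a call lost without 3 of the 4 TOM libraries, the exception being TOM day 0 library 1 (adjusted p 0.0538 to 0.0682). Hilpda was at 9.79 and 8.11 FPKM in Ddx6-KO day 2 and 9.34 and 11.1 FPKM in Ddx6-KO day 0 libraries. In TOM cells it was at 9.85 and 9.80 FPKM at day 2 and 4.09 and 3.20 FPKM at day 0. Hilpda was thus higher in Ddx6-KO cells at day 0 (log2 difference 1.27, limma adjusted p = 0.00813). At day 2 the lines differed in Hilpda by less than 1 SE. Ces1d, a carboxylesterase that hydrolyses triglyceride, fell in TOM cells (log2 change -2.90, adjusted p = 0.00151), with 0.22 and 0 FPKM at day 2 and 6.09 and 8.56 FPKM at day 0. The changes of G0s2, Hilpda and Prkar2b, a regulatory subunit of protein kinase A, were lower in Ddx6-KO cells and that of Ces1d was higher, with log2 differences of -2.73, -1.40, -1.16 and 3.25 (adjusted p = 0.0314, 0.0360, 0.0166 and 0.00833). These calls were lost without 7 of the 8 libraries for G0s2, the exception being Ddx6-KO day 2 library 2 (adjusted p 0.0637 to 0.132), and without any 1 of the 8 for Hilpda (adjusted p 0.0594 to 0.168). That of Prkar2b was lost without any 1 Ddx6-KO day 0 or TOM day 2 library (adjusted p 0.0501 to 0.0915), and that of Ces1d without Ddx6-KO day 0 library 1 (adjusted p = 0.0589). Prkar2b was the gene that fell in Ddx6-KO cells (log2 change -1.51, SE 0.13, adjusted p = 0.000763). Ces1f, a related carboxylesterase, was lower in Ddx6-KO cells on both days, by log2 differences of -2.23 at day 2 (adjusted p = 0.00113) and -1.57 at day 0 (adjusted p = 0.00551, a call lost when 1 Ddx6-KO day 0 library was left out, with adjusted p = 0.0557 and 0.0581), and genes of the Ces1 family are close copies whose fragments can be shared. Between the lines 1 of 12 was higher in Ddx6-KO cells and 3 lower at day 2 (10.4 and 8.58% of all genes), and 2 were higher and 2 lower at day 0 (6.55 and 4.81%). G0s2, among those lower at day 2, adds no support to that count. The day 0 calls of Ces1d, Prkar2b, Hilpda and Ces1f were each lost when some single library was left out. So were the day 2 calls of Ces1d and Prkar2b.

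Of 7 adipocyte transcription factors, 6 could be tested, where 4.8% of all genes rose and 5.85% fell in Ddx6-KO cells and 3.4% rose and 3.74% fell in TOM cells. In Ddx6-KO cells Rxra and Cebpd rose (limma log2 change 1.18, adjusted p = 0.0306, and 0.84, adjusted p = 0.00875) and 0 fell (0 at an unadjusted p under 0.05). In TOM cells Rxra, Cebpd, Cebpa, Pparg and Cebpb rose, by log2 changes of 0.96 to 1.90, and 0 fell (0 at an unadjusted p under 0.05). Their median log2 change was 0.09 in Ddx6-KO cells and 1.22 in TOM cells. In Ddx6-KO cells the call of Rxra was lost without 7 of the 8 libraries, the exception being Ddx6-KO day 0 library 1 (adjusted p 0.0537 to 0.118), and that of Cebpd without either Ddx6-KO day 0 library (adjusted p 0.0730 and 0.0775). In TOM cells that of Cebpa was lost without any 1 of the 8 libraries (adjusted p 0.0559 to 0.219) and that of Pparg without any 1 of the 4 TOM or the Ddx6-KO day 0 libraries (adjusted p 0.0572 to 0.171). Pparg, the nuclear receptor that drives fat cell formation, was at 3.16 and 2.32 FPKM in Ddx6-KO day 2 and 2.98 and 4.08 FPKM in Ddx6-KO day 0 libraries, against 34.6 and 44.0 FPKM in TOM day 2 and 19.6 and 14.0 FPKM in TOM day 0 libraries. All Ddx6-KO libraries lay under all TOM libraries, with log2 differences of -3.43 at day 2 (SE 0.25, adjusted p = 0.000396) and -1.97 at day 0 (SE 0.25, adjusted p = 0.00389). Cebpd, an early C/EBP factor, was higher in Ddx6-KO cells on both days (log2 difference 1.87 at day 2, adjusted p = 0.000361, and 2.40 at day 0, adjusted p = 0.000174). Between the lines, 1 of the 6 was higher in Ddx6-KO cells and 2 lower at day 2, beside 10.4 and 8.58% of all genes. At day 0, 2 were higher and 1 lower, beside 6.55 and 4.81%. Cebpa, counted as lower at day 2, was at 0.14 to 0.34 FPKM in Ddx6-KO libraries and 1.07 to 5.25 FPKM in TOM libraries. It passed the filter through TOM cells alone, so it adds no support to that count. No difference of the changes passed for these genes (0 of 6), although 4, Pparg, Cebpa, Cebpb and Cebpd, had a lower change in Ddx6-KO cells at an unadjusted p under 0.05. Of all 15811 tested genes, 1438 had a lower change at that threshold.

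Among 8256 genes of at least 5 FPKM in at least 2 libraries, the 5 whose log2 levels over the 8 libraries were most like those of Cidec were Fitm2, Acsl1, Id1, Ednra and Wdr89 (Pearson r 0.974 to 0.981). Acsl1, the main acyl-CoA synthetase of fat cells, averaged 5.40 FPKM in Ddx6-KO day 2, 7.93 in Ddx6-KO day 0, 112 in TOM day 2 and 9.21 in TOM day 0 libraries. For Fabp4 they were Extl3, Abce1, Rhob, Ubqln1 and Bcar3 (r 0.976 to 0.985), with group means of at most 48.8 FPKM. For Plin2 the 4 most alike were Pcdh18, Col4a5, F2r and Eno3 (r 0.980 to 0.982), and Col4a5, a collagen IV chain, averaged 13.7 FPKM in Ddx6-KO day 2, 55.1 in Ddx6-KO day 0, 6.54 in TOM day 2 and 41.5 in TOM day 0 libraries. These correlations describe 8 libraries in 4 groups that differ in depth, and carry no test.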

How the data were processed

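Stranded total RNA libraries were sequenced from paired ends. The authors trimmed and filtered the reads, aligned them with TopHat2 2.1.0 to GRCm38/mm10 and deposited FPKM per gene from Cufflinks 2.2.1, so the values are normalized and no read counts were used here. Read quality was assessed with FastQC 0.11.2, per the labels. Which annotation release the authors counted on is not stated, and names and coordinates of 45139 of the 46073 identifiers were taken from GENCODE M21. The deposited columns name a group and a column number but not the numbers of the labels, so libraries 1 and 2 follow the column numbers. Depth was estimated from the FPKM that a single fragment gives.

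From FPKM, log2(FPKM + 1) was computed, and a filter of at least 1 FPKM in 2 or more libraries left 15811 genes. A model with 1 mean for each of 4 groups was fitted across all of these with limma 3.58.1 in R 4.3.3, with a variance trend, and the Benjamini-Hochberg adjustment was made over all tested genes of a comparison, with 0.05 as the threshold. The fit was first tested on simulated data. The 5 comparisons were day 2 against day 0 in each line, the difference between both changes, and the lines against each other on each day. Alternatives used a pseudocount of 0.1 or of 5, the filter at 5 FPKM or left out, TPM rescaling over all or protein-coding genes, median-ratio scaling, no variance trend, the compared groups alone, a replicate block and leaving out each library, with the tested genes kept. All 10 members are described, and of each list at most 4 genes per comparison past the threshold with the largest change, and for likeness up to 5 genes by Pearson correlation, of which 1 is not reported here. The members and lists were chosen with earlier results of these data known. Promoters are from RefSeq (GRCm38.p6).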

Additional observations from a re-analysis of the deposited data

Results flagged for a closer look

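For 6 of the 10 genes the change over 2 days differed between the lines by a test of the difference itself (limma on log2(FPKM + 1)). The change in Ddx6-KO cells minus the change in TOM cells was -6.63 for Fabp4, -3.85 for Cidec, -2.61 for Pnpla2, -2.43 for Abhd5, -1.98 for Plin1 and -1.76 for Lipe. For Cidec and Plin1 this direction was favoured by the filter, which they passed through TOM day 2 alone. The adjusted p ranged from 0.000229 (Fabp4) to 0.0439 (Plin1). Of these, Fabp4 is the gene with changes past the threshold in both lines and in opposite directions, lower at day 2 in both Ddx6-KO libraries and higher in both TOM libraries. The part of depth in these differences was not tested. The Ddx6-KO day 2 libraries held an estimated 1480000 and 2570000 fragments and the TOM day 2 libraries 2450000 and 2690000. At day 0 the estimates were 5890000 and 3720000 in Ddx6-KO libraries, and 21380000 (library 1) and 3390000 (library 2) in TOM libraries.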

How the results depend on the processing

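Under 18 alternatives, 8 of which left out 1 library, the number of the 10 genes called was within 1.5 times the count given in the report except as follows. For day 2 against day 0 in Ddx6-KO cells it was 1 in place of 2 without the variance trend, and 1 to 2 with 1 library left out. For Ddx6-KO against TOM at day 0 it was 1 in place of 3 with TPM rescaling over protein-coding genes (0 higher and 1 lower) and 1 without the variance trend, and 1 to 4 with 1 library left out, with Plin4 called in each case. With 1 library left out, the count was 6 to 7 for TOM cells, 2 to 5 in place of 6 for the difference of the changes, and 6 to 8 at day 2. For the difference of the changes, 4 genes were called with a pseudocount of 0.1 or no filter. Over all 50 gene comparisons, no value changed sign while called. The values that turned were Plin2 and Plin3 in the difference of the changes (-0.080 and -0.13) and Plin2 at day 2 (-0.12) with TPM rescaling over protein-coding genes, and Mgll in TOM cells (-0.081 without TOM day 2 library 2, and up to 0.92 with another library left out). A further 13 differences under 1 standard error included 11 whose sign turned in some alternative. Of 50 calls made for genes of the other lists, 26 held in all alternatives run, 24 were lost in some (22 of them without 1 library), and 0 changed sign. Plin3 at day 2 passed with TPM rescaling over protein-coding genes (log2 difference -0.997, adjusted p = 0.0311).

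A replicate block by column number, added after seeing the data, gave 2 called genes in Ddx6-KO cells (2 without the block), 7 in TOM cells (7), 4 for the difference of the changes (6), 7 at day 2 (7) and 2 at day 0 (3). A block by the numbers in the labels was not run, because the columns cannot be matched to them. The column numbers were not taken as pairs, since deviations of same-numbered libraries correlated at -0.10 to 0.07 over genes.

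Scaling moved the median log2 change of all genes from 0.09 to -0.19 (TPM) and -0.26 (TPM over protein-coding genes) in Ddx6-KO cells, from 0.03 to -0.14 (TPM) in TOM cells, from 0.04 to -0.39 (protein-coding) for the difference of the changes, and from 0.11 to -0.27 (protein-coding) and 0.00 (median ratio) at day 2. Genes higher and lower at day 2 in Ddx6-KO cells numbered 759 and 925, but 357 and 1917 with TPM, 550 and 1036 with median ratios and 213 and 1361 with TPM over protein-coding genes. In TOM cells they numbered 538 and 592, but 285 and 726 with TPM. For the difference of the changes they numbered 320 and 343, but 175 and 322 with TPM and 106 and 518 over protein-coding genes, and between the lines at day 2 1638 and 1357, but 1019 and 1419 with TPM, 1223 and 1605 with median ratios and 578 and 2759 over protein-coding genes. With 1 library left out, the number of genes called was 429 to 1472 in Ddx6-KO cells (1684 with all libraries), 513 to 1081 in TOM cells (1130), 183 to 530 for the difference (663), 1160 to 2760 at day 2 (2995) and 348 to 1785 at day 0 (1796). A library left alone in its group was assumed to vary like the other groups. Other settings that moved a count of all genes by over 1.5 times were no filter (410 for the difference, 1142 at day 0), TPM over protein-coding genes (864 at day 0) and the compared groups alone (1785 at day 2). The filter at 5 FPKM kept 8 of the 10 genes, and the fits to the compared groups alone kept 6 to 10.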
